A study of Mus musculus with 9 samples.

Results

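The Hox gene clusters of Abl.1 cells were described from reduced representation bisulfite sequencing (RRBS), which reads DNA methylation at CpG dinucleotides near the cut sites of a restriction enzyme. The members were the 39 genes whose symbol is Hoxa, Hoxb, Hoxc or Hoxd followed by a number, out of 49943 genes in the annotation table, together with the CpGs of 4 windows of mm10. These windows were chr6:52150000-52280000 for Hoxa (11 genes), chr11:96180000-96380000 for Hoxb (10 genes), chr15:102900000-103050000 for Hoxc (9 genes) and chr2:74650000-74780000 for Hoxd (9 genes). They held 6393 CpGs read in any library, of which 3402 had at least 1 read in each of the 9 libraries and were used. By cluster these were 868 in Hoxa, 963 in Hoxb, 678 in Hoxc and 893 in Hoxd, out of 1096949 such CpGs in all. The median was 8 reads per CpG and library, and the 3402 CpGs together held 21510 to 39920 reads per library, so single CpGs are not reported.

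Abl.1 is an immortalised B cell line, female, from the cross 129S1/SvImJ x CAST/EiJ (F1), and all groups come from this 1 line. Cells were kept for 2 days in medium with 1% DMSO, the solvent and control (2 libraries), or with 0.2 µM (2 libraries), 2 µM (3 libraries) or 10 µM (2 libraries) 5-aza-2'-deoxycytidine (5-aza-dC), which had been dissolved in DMSO. This cytidine analogue is built into replicating DNA and traps the DNA methyltransferases, so that daughter strands stay unmethylated. Live cells were recovered by density centrifugation. Replicates are named in the labels as repeats of the library preparation, and separate cultures are not mentioned, so p-values measure only the spread between these libraries, which may be technical. Libraries of the same group correlated with r from 0.727 to 0.901, on 596 to 1285 Hox CpGs per pair. Libraries of different groups gave r from 0.690 to 0.867, so the ranges overlap. The squared difference between 2 libraries was 0.892 to 1.08 times the binomial variance within groups and 1.38 to 4.39 times across groups. The 9 tested gene windows of B lineage markers ranged from 0.649% to 95.9% methylation in DMSO. The B and pre-B cell receptor genes Cd79b, Vpreb1 and Vpreb2 were at 0.649%, 0.658% and 1.69%, whereas the B lineage genes Pax5, Ebf1, Rag1, Cd22 and Blk were at 15.5%, 23.9%, 61.5%, 78.0% and 95.9%, so these levels do not settle the cell type of the label. Expression was not measured in these files.

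Hox genes encode homeodomain transcription factors that give cells their position along the body axis. The genes of a cluster lie in the order in which they are used, with anterior genes (groups 1 to 3) at one end, central genes (groups 4 to 8) in between and posterior genes (groups 9 to 13) at the other. In blood cells some Hox genes act in stem and progenitor cells and are switched off as the cells mature, and cytosine methylation and Polycomb proteins are both known to mark silent Hox genes.

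Promoters of differing methylation are shown here, so that some of the CpGs behind their levels can be seen. Each line holds the 250 bases before an annotated start (RefSeq, GRCm38.p6), 5′ to 3′ on the gene's strand, and capitals mark the CpGs read in every library. Hoxa5 and Hoxd11 had the most methylated promoters of the 21 tested, Hoxd1 was intermediate to high, and Hoxa13 was low at the few CpGs read just before its start, while its whole promoter window of 1 kb on either side stood at 26.8% in DMSO.
Hoxa5 (chr6:52204588-52204837, minus strand): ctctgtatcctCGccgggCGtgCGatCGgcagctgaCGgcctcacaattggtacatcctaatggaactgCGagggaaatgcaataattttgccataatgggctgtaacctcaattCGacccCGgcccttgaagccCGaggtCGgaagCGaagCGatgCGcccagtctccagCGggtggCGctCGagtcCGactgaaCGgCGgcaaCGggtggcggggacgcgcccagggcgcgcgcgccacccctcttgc
Hoxd11 (chr2:74682073-74682322, plus strand): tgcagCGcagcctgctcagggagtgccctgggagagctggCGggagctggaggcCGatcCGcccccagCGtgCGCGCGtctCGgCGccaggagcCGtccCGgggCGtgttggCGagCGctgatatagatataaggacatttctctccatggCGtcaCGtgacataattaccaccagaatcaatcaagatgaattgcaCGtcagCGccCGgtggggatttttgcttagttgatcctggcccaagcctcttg
Hoxd1 (chr2:74762730-74762979, plus strand): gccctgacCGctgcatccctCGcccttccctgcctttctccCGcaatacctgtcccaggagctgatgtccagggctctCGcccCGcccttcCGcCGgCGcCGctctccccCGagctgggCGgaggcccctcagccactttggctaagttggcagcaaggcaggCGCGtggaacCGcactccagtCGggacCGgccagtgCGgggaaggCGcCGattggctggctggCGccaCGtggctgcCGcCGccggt
Hoxa13 (chr6:52260881-52261130, minus strand): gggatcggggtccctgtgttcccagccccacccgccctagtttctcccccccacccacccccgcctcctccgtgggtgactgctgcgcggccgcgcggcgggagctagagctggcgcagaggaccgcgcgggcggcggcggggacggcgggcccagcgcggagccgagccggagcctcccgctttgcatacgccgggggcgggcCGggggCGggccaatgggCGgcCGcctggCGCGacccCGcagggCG

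The Hoxa5 stretch holds 28 CpGs, of which 20 were read in every library, and their mean level was 96.0% in DMSO, 59.8% at 0.2 µM, 58.2% with 2 µM and 61.5% at 10 µM. The whole Hoxa5 promoter window held 55 such CpGs and, from summed reads, was at 97.2%, 66.1%, 49.8% and 69.7%. In the Hoxd11 stretch all 20 CpGs were read, at 86.3%, 64.4%, 41.0% and 72.4% in the same order. The 23 of 24 CpGs read before Hoxd1 were at 62.0%, 38.8%, 47.8% and 53.3%. Of the 35 CpGs before Hoxa13 only 8 were read in every library, and these were at 6.82%, 4.37%, 2.99% and 4.63%. The Hox promoters were rich in CpGs, with a median of 13 CpGs in these 250 bases against 6 over all 32851 promoters of the table. The tetranucleotide CCGG, which reads the same on both strands, was present in 16 of the 21 Hox promoters (76.2%) and in 47.1% of all promoters.

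All 4 clusters lost methylation under the drug, most at 0.2 or 2 µM and least at 10 µM. Over the 3402 Hox CpGs the mean level was 49.2% and 50.3% in the DMSO libraries, 26.1% and 25.6% at 0.2 µM, 29.1%, 29.2% and 30.2% with 2 µM, and 40.9% and 40.6% at 10 µM. The 4 groups did not overlap, and the lowest dose gave the lowest level. Group means were 49.8% ± 0.74 (SD, n = 2), 25.9% ± 0.40 (SD, n = 2), 29.5% ± 0.63 (SD, n = 3) and 40.8% ± 0.20 (SD, n = 2). The level differed across the 4 groups in an exact permutation test over all 7560 assignments of libraries (p = 0.000794, the smallest this design gives, adjusted p = 0.000992). All CpGs of the libraries moved in the same order, from 37.6% in DMSO to 16.6%, 23.0% and 30.7%. For a pair of doses the exact test of these means cannot reach 0.05, since 2 libraries against 2 cannot go below an exact p of 0.333 and 3 against 2 not below 0.1.

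**Figure D1:**
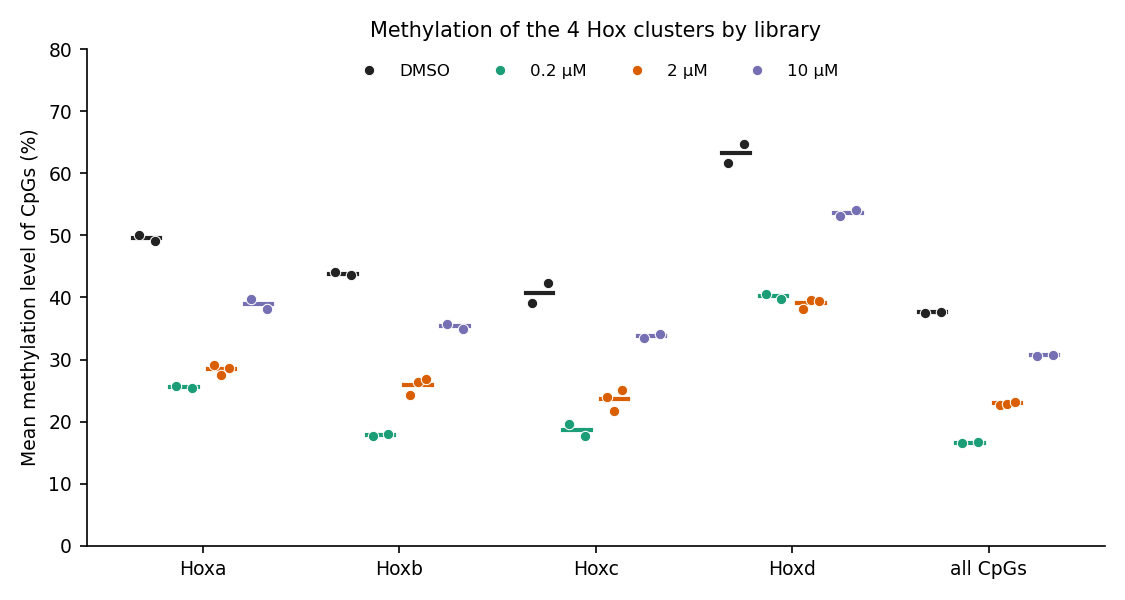
Mean CpG methylation (percent, vertical axis) in the 4 Hox clusters and in all CpGs (horizontal axis). Points are the 9 libraries, coloured by dose, and bars are group means. Hoxd lies above the other clusters in every library, and every set is highest in DMSO.

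Hoxd was the most methylated cluster, and in unweighted means over CpGs it was no higher at 2 than at 0.2 µM. Hoxd libraries were at 61.7% and 64.7% in DMSO, 40.6% and 39.8% at 0.2 µM, 38.2%, 39.6% and 39.4% with 2 µM, and 53.2% and 54.1% at 10 µM. The DMSO, 10 µM and lower dose libraries of Hoxd were apart from each other, and every 2 µM library lay below both 0.2 µM libraries by a small margin. This order depends on the weighting: Hoxd was at 29.3% at 0.2 µM and 34.1% at 2 µM as a mean over 1 kb tiles, and at 37.5% and 38.2% with CpGs weighted by reads. Hoxb went from 44.1% and 43.6% in DMSO to 17.7% and 18.1% at 0.2 µM, with 24.3%, 26.3% and 26.9% at 2 µM and 35.7% and 35.0% at 10 µM. The Hoxb groups did not overlap, but weighted by reads Hoxb at 10 µM was 0.969 points above DMSO. Hoxa was at 50.0% and 49.1% in DMSO, 25.7% and 25.4% at 0.2 µM, 29.1%, 27.5% and 28.6% with 2 µM, and 39.8% and 38.2% at 10 µM. Hoxc was at 39.0% and 42.3%, then 19.6% and 17.7%, then 24.0%, 21.7% and 25.1%, then 33.4% and 34.0%. The groups of Hoxa and Hoxc did not overlap either. Each cluster differed across the doses in the same exact test (adjusted p = 0.000992 for Hoxa, Hoxb and Hoxc, 0.00159 for Hoxd).

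Hoxd exceeded each of the other clusters in 9 of 9 libraries, by a mean of 13.1 points over Hoxa, 17.7 over Hoxb and 19.4 over Hoxc. Each of these gave p = 0.00391 in an exact sign permutation test over libraries, the smallest it allows, with an adjusted p of 0.00469 over 6 pairs. This order held with more reads required per CpG, with CpGs weighted by reads and as a mean over 1 kb tiles, where the excess over Hoxa was at least 4.96 points. Hoxb and Hoxc were lower than Hoxa by 4.64 and 6.27 points with the same p, but this turned round with 5 or more reads per CpG and library, where Hoxb was 3.18 and Hoxc 7.78 points higher than Hoxa. Hoxb and Hoxc differed by 1.63 points (exact p = 0.0547). The gap between Hoxd and Hoxb changed with dose, from 19.4 points ± 2.45 (SD, n = 2) in DMSO to 22.3 ± 0.81 (n = 2) at 0.2 µM, 13.2 ± 0.73 (n = 3) with 2 µM and 18.3 ± 1.19 (n = 2) at 10 µM (exact permutation test, adjusted p = 0.019). Weighted by reads, its change from DMSO to 0.2 µM had the other sign, at -8.78 points. The other 5 gaps gave adjusted p-values from 0.0603 to 0.353 in that exact test.

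Expressed as a share of its own DMSO level, Hoxd kept 63.6% at 0.2 µM and 61.8% at 2 µM, whereas Hoxb kept 40.8% and 58.9%. Hoxa kept 51.6% and 57.3%, Hoxc 45.9% and 58.0%, and all CpGs 44.0% and 61.0%. At 10 µM the 4 clusters kept between 78.7% and 84.8%, and all CpGs 81.6%. Hoxd kept the most at 0.2 µM under every weighting tried except among CpGs with at least 10 reads, where Hoxc kept 56.6% and Hoxd 54.6%. On the log2 scale the ratio of the Hoxd level to that of all CpGs went from 0.75 in DMSO to 1.28 at 0.2 µM, 0.77 at 2 µM and 0.81 at 10 µM (exact permutation test, adjusted p = 0.0291). This comparison with all CpGs depends on the weighting: with CpGs weighted by reads the change from DMSO to 0.2 µM was -0.14, as all CpGs then keep 70.3% of their DMSO level. With at least 5 reads per CpG it was 0.37 (unadjusted exact p = 0.0754).

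A comparison at matched starting levels used CpGs with a pooled DMSO level of 80% or above and at least 10 pooled DMSO reads. There were 555 in the Hox windows and 120148 in all, chosen on the DMSO libraries alone, and only treated libraries were compared. At these CpGs Hoxd kept more methylation than the genome at 0.2 µM and a like amount at 2 µM. The 202 Hoxd CpGs stood at 62.5% ± 2.48 (SD, n = 2) at 0.2 µM, 52.5% ± 1.09 (n = 3) with 2 µM and 73.8% ± 0.93 (n = 2) at 10 µM. All 120148 CpGs stood at 42.7% ± 0.25 (n = 2), 52.0% ± 0.44 (n = 3) and 69.9% ± 0.24 (n = 2). By library, the excess of Hoxd was 21.7 and 17.9 points at 0.2 µM, 0.10, 0.26 and 1.32 points at 2 µM, and 3.42 and 4.39 points at 10 µM. The 3 doses did not overlap, and from 0.2 to 2 µM the Hoxd CpGs went down where all CpGs went up. The change of the excess from 0.2 to 2 µM was -19.2 points (exact permutation test over 210 assignments of the treated libraries, p = 0.00952, adjusted p = 0.0476 over 5 sets).

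The 122 Hoxa CpGs of this kind stood at 50.8%, 50.5% and 66.6% at the 3 doses, a change of the excess of -9.59 points (exact p = 0.0571). The 61 Hoxc CpGs stood at 43.5%, 46.7% and 62.2% (-6.03 points, exact p = 0.0762), and the 170 Hoxb CpGs at 40.3%, 48.1% and 67.7% (-1.53 points, exact p = 0.19). Over all 555 Hox CpGs the change was -10.2 points (exact permutation test, p = 0.019, adjusted p = 0.0476). Leaving out any 1 of the 7 treated libraries gave adjusted exact p-values from 0.0833 to 0.167 for Hoxd, with the change between -17.3 and -21.2 points. With at least 5 reads per CpG the changes were -16.5 points for Hoxd and -6.01 points for all Hox CpGs, each with an unadjusted exact p of 0.0857, so neither passed.

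The share of nearly fully methylated Hox CpGs fell at each dose. Among the 1177 Hox CpGs with 5 or more reads in every library, 22.3% ± 1.68 (SD, n = 2) were at 80% or above in DMSO, against 1.57% ± 0.54 (n = 2) at 0.2 µM, 0.765% ± 0.53 (n = 3) with 2 µM and 5.78% ± 1.56 (n = 2) at 10 µM (exact permutation test, adjusted p = 0.00357). CpGs under 20% made up 34.8%, 56.3%, 46.6% and 39.3% of them in the same order (adjusted exact p = 0.00238). Intermediate CpGs made up 42.9% in DMSO, 42.1% at 0.2 µM, 52.6% with 2 µM and 54.9% at 10 µM (adjusted exact p = 0.00794). Intermediate levels were the most frequent class in DMSO and at 2 and 10 µM, and levels under 20% at 0.2 µM.

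Anterior genes were the more methylated end of Hoxa and Hoxb, and posterior genes the more methylated end of Hoxd. CpGs were given to the nearest Hox gene, which placed 804 with 8 anterior genes, 591 with 15 central genes and 1798 with 16 posterior genes. The other 209 lay equally near genes of different classes, mostly inside the long spans of Hoxa3, Hoxb3 and Hoxd3, and were left out. This removed CpGs inside Hoxa4, Hoxa5 and Hoxa6, the most methylated genes of Hoxa, and inside Hoxb4. Central Hoxa therefore rests on 47 CpGs, and its 37.8% in DMSO does not describe Hoxa4 to Hoxa6. Hoxc has no anterior gene. In DMSO the anterior CpGs were at 63.2% ± 1.33 (SD, n = 2) in Hoxa and 69.8% ± 1.93 (n = 2) in Hoxb, against 35.4% ± 0.53 (n = 2) and 39.9% ± 1.02 (n = 2) at the posterior CpGs. In Hoxd the anterior CpGs were at 49.7% ± 2.42 (n = 2) and the posterior ones at 70.0% ± 2.24 (n = 2).

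**Figure D2:**
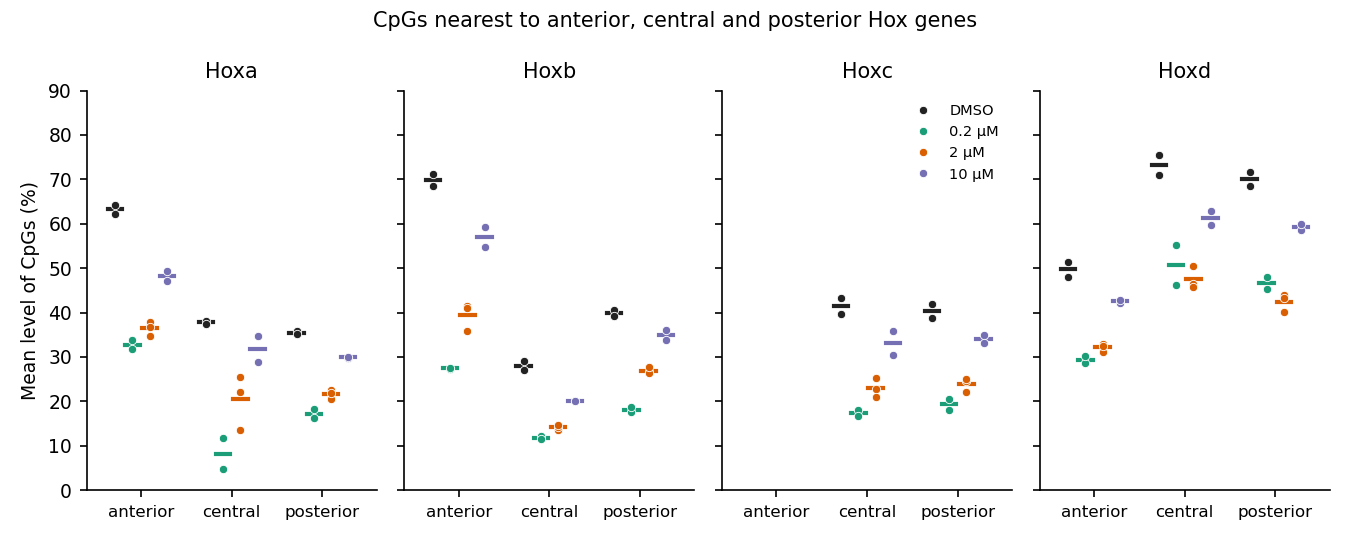
Mean CpG methylation (percent, vertical axis) of anterior, central and posterior CpGs (horizontal axis) for each cluster, with 1 point per library, coloured by dose, and bars for group means. Posterior CpGs lie below anterior ones in every library of Hoxa and Hoxb and above them in every library of Hoxd. CpGs equally near genes of different classes are left out, among them those of Hoxa4 to Hoxa6 inside Hoxa3.

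Posterior minus anterior averaged -18.6 points in Hoxa, -17.8 in Hoxb and 15.5 in Hoxd, with the same sign in 9 of 9 libraries each (exact sign permutation test, p = 0.00391, the smallest it allows). For Hoxa this order was lost among CpGs with at least 10 reads, where the difference was 2.20 points. The gap in points was narrower in the treated groups by unweighted means. Such a gap also narrows where both ends keep the same share of their DMSO level. Its test therefore does not show that the ends responded differently. At 0.2 µM anterior and posterior CpGs kept 51.9% and 48.7% in Hoxa, 39.3% and 45.4% in Hoxb, and 59.2% and 66.6% in Hoxd. In Hoxb the gap went from -29.9 points ± 0.91 (SD, n = 2) in DMSO to -9.32 ± 0.67 (n = 2) at 0.2 µM, -12.5 ± 3.05 (n = 3) with 2 µM and -22.1 ± 4.80 (n = 2) at 10 µM (exact permutation test, adjusted p = 0.00952). In Hoxa it went from -27.8 points to -15.5, -14.8 and -18.3 (adjusted exact p = 0.0262). In Hoxd it went from 20.3 points to 17.2, 10.3 and 16.7 (adjusted exact p = 0.0254). The unadjusted exact p rose above 0.05 without either DMSO library for Hoxd, with changes at 0.2 µM of -2.96 and -3.21 points. The same happened for Hoxa without any 1 of the 2 µM libraries or without the first 10 µM library, where the change was 12.2 points. The narrowing in Hoxa also did not pass with at least 5 reads per CpG (6.45 points at 0.2 µM, unadjusted exact p = 0.152) or weighted by reads (4.79 points, p = 0.114). With at least 10 reads the change had the other sign in both, at -0.24 points in Hoxa and 1.36 in Hoxd.

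Anterior Hoxb had the largest fall at 0.2 µM of the classes in unweighted means. Its libraries averaged 69.8% in DMSO, 27.4% ± 0.17 (SD, n = 2) at 0.2 µM, 39.4% ± 3.18 (n = 3) with 2 µM and 57.0% ± 3.18 (n = 2) at 10 µM. Central Hoxb, taken without the CpGs of Hoxb4 inside Hoxb3, was the least methylated class in DMSO, at 28.0%, 11.8%, 14.1% and 20.1%. Posterior Hoxd fell from 70.0% to 46.6% at 0.2 µM and 42.4% at 2 µM, and stood at 59.3% at 10 µM. The 2 Hoxc classes lay close together, with central CpGs at 41.4%, 17.4%, 23.0% and 33.2% and posterior CpGs at 40.3%, 19.4%, 23.9% and 34.0%.

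Each gene was then taken as its annotated span with 1 kb on either side. Reads were summed over its CpGs, and doses were compared with a binomial model whose dispersion was moderated with limma across all 23224 genes tested. A gene was called at a Benjamini-Hochberg adjusted p under 0.05 over all of them. All 39 Hox genes were tested, and the median DMSO level was 42.1% over the Hox genes and 21.1% over all genes. In DMSO 3 Hox genes were under 20%, 4 were at 80% or above and 32 lay between. Of the 39, 19 share part of their window with another Hox gene, so their values are not independent.

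At 0.2 µM 35 of the 39 Hox genes were lower than in DMSO, against 49.9% of all genes tested. They were all 11 Hoxa genes, 6 of 10 Hoxb genes, all 9 Hoxc genes and all 9 Hoxd genes, and the median change was -21.8 points against -9.09 over all genes. The 4 genes not called were Hoxb4, Hoxb6, Hoxb7 and Hoxb8, neighbours in the central part of Hoxb. At 2 µM 31 of the 39 were lower (34.0% of all genes), with a median of -15.8 points against -2.89, and these included all 9 Hoxd genes. At 10 µM 9 of the 39 were lower (8.47% of all genes), namely Hoxa3, Hoxa4, Hoxa5, Hoxa6, Hoxb1, Hoxb5, Hoxd8, Hoxd9 and Hoxd11, with a median of -7.59 points against -0.30. The count at 10 µM rests on the control libraries, since it was 4 without the first DMSO library, 3 without the second and 5 without the first 10 µM library. It was 5 when log2 ratios of methylated to unmethylated reads were tested with limma, and these were Hoxa4, Hoxa5, Hoxa6, Hoxb1 and Hoxb5.

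At none of the doses did the binomial model call a Hox gene higher than DMSO, where 0.0646%, 0.168% and 0.4% of all genes were called higher at 0.2, 2 and 10 µM. The count at an unadjusted p under 0.05 was also 0 at each dose, and limma on log2 ratios called 1 at 2 µM, Hoxb8. Its level was 0.94% ± 0.67 (SD, n = 2) in DMSO and 2.35% ± 0.37 (SD, n = 3) at 2 µM.

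**Figure D3:**
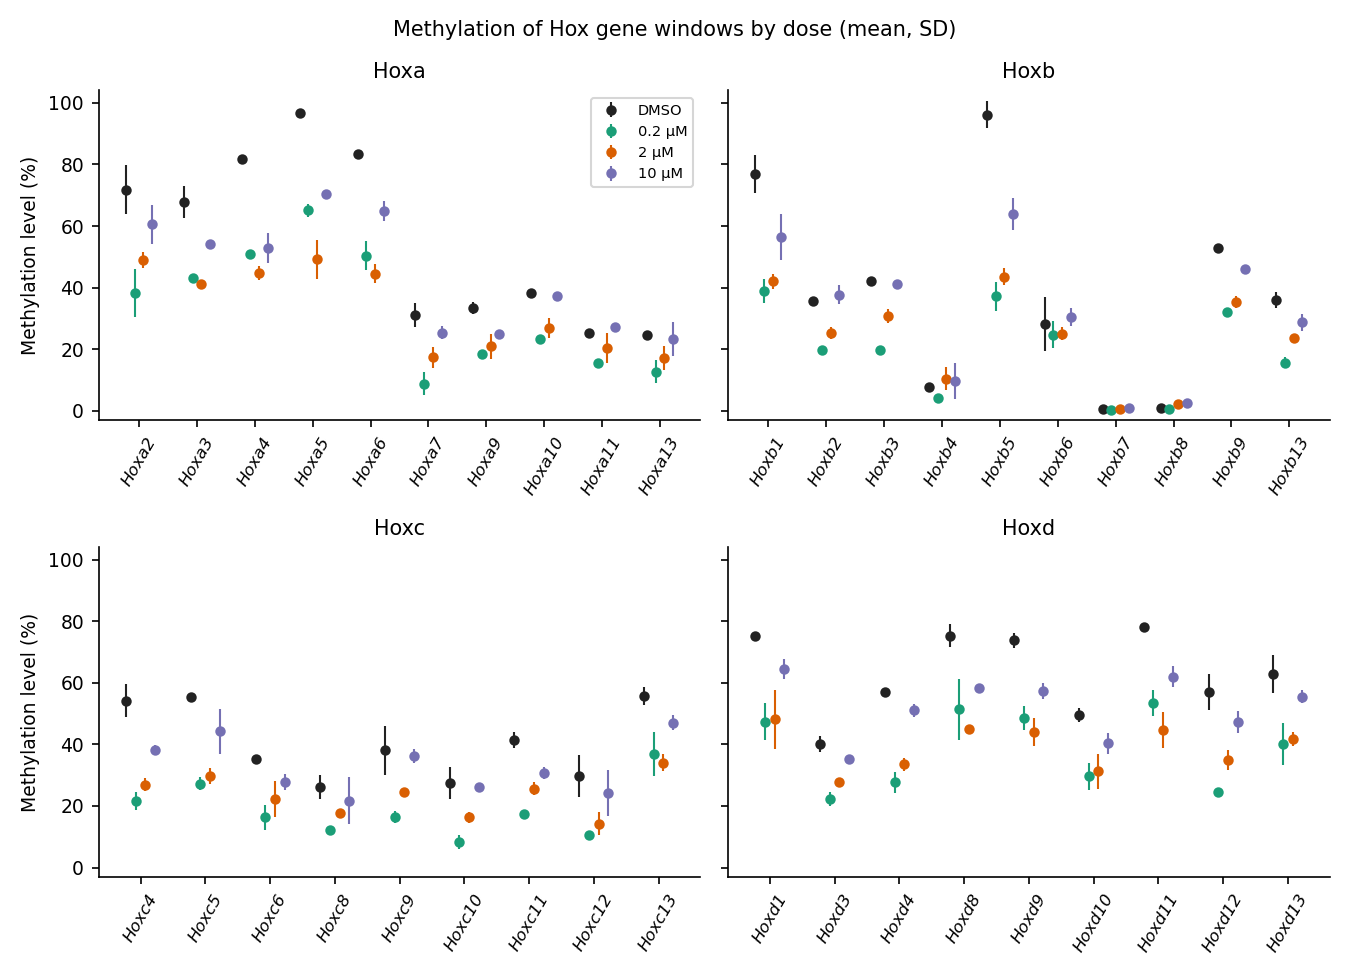
Methylation (percent, vertical axis) of Hox gene windows (horizontal axis, in the order of their group numbers), as mean and SD over the libraries of each dose. Hoxb7 and Hoxb8 lie near 0, Hoxa5 and Hoxb5 lie above the others in DMSO, and most windows are lowest at 0.2 µM.

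The most methylated gene of Hoxa was Hoxa5, a central gene known for its part in lung and axial skeleton development. Its span is chr6:52201754-52204587, its window overlaps those of Hoxa3 and Hoxa6, and its upstream sequence is the first one printed above. It stood at 95.8% and 97.6% in DMSO, 66.7% and 63.6% at 0.2 µM, 43.5%, 48.1% and 55.9% with 2 µM, and 70.0% and 70.7% at 10 µM. The groups did not overlap, and the 2 µM libraries were the lowest. The changes were -31.6 points at 0.2 µM (adjusted p = 4.6e-05), -47.5 at 2 µM (adjusted p = 6.5e-06) and -26.3 at 10 µM (adjusted p = 0.0024), all in the binomial model. It was also the 1 Hox gene lower at 2 than at 0.2 µM (adjusted p = 0.048), against 0.439% of all genes. That call did not hold under limma on log2 ratios, nor when either DMSO, either 0.2 µM or any 1 of the 2 µM libraries was left out.

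Its neighbours followed the same order of doses. Hoxa4 (chr6:52189682-52191703) was at 82.5% and 80.8% in DMSO, 50.9% and 50.6% at 0.2 µM, 46.4%, 42.2% and 45.6% with 2 µM, and 56.4% and 49.5% at 10 µM. Hoxa6 (chr6:52204858-52208672) was at 82.6% and 84.0%, then 47.1% and 53.7%, then 41.0%, 45.7% and 46.7%, then 67.0% and 62.5%. In both genes the DMSO libraries lay far above all treated ones and the 2 µM libraries were the lowest. At 10 µM Hoxa4 was lower by -28.7 points (adjusted p = 0.002) and Hoxa6 by -18.5 points (adjusted p = 0.0099). The Hoxa6 call at 10 µM was lost without either DMSO library.

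Hoxa2, which patterns the hindbrain and branchial arches, was among the 3 Hox genes with the largest falls at 0.2 µM. Its libraries (chr6:52162417-52164831) were at 77.4% and 66.3% in DMSO, 32.6% and 43.8% at 0.2 µM, 49.0%, 51.5% and 46.3% with 2 µM, and 65.1% and 56.1% at 10 µM. The change was -33.6 points at 0.2 µM (adjusted p = 0.00025) and -22.9 at 2 µM (adjusted p = 0.003), and at 10 µM it was -11.3 points (adjusted p = 0.22). The call at 2 µM was lost without the first DMSO library (-17.3 points, adjusted p = 0.121). Here 0.2 µM was the lowest dose, unlike in Hoxa4 to Hoxa6.

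Hoxb held the lowest and one of the highest levels side by side. Hoxb5 (chr11:96303512-96306121), whose reporter marks long-term blood stem cells, was at 93.1% and 99.3% in DMSO, 40.5% and 33.9% at 0.2 µM, 46.1%, 40.8% and 43.9% with 2 µM, and 60.1% and 67.4% at 10 µM. Its changes of -59.0 points (adjusted p = 3.1e-06), -52.6 (adjusted p = 4.8e-06) and -32.4 (adjusted p = 0.0016) were the largest among the 39 Hox genes at each of the 3 doses. Hoxb7 (chr11:96285604-96290163) lies in the same part of the cluster and was near 0 in every library: 0.5% and 0.5% in DMSO, 0.4% and 0.1% at 0.2 µM, 0.2%, 0.6% and 0.5% with 2 µM, and 1.0% and 0.7% at 10 µM. With 1083 to 2581 reads per library this was among the most deeply read Hox windows. Hoxb8, which shares part of the Hoxb7 window, was at 0.94%, 0.66%, 2.35% and 2.64% across the groups, and Hoxb4, known for expanding blood stem cells, at 7.63%, 4.19%, 10.4% and 9.57%.

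Hoxb1, which specifies a hindbrain segment, lay at the anterior end (chr11:96365746-96368254). It was at 72.6% and 81.3% in DMSO, 36.1% and 41.6% at 0.2 µM, 41.6%, 44.8% and 39.8% with 2 µM, and 51.1% and 61.6% at 10 µM. The DMSO libraries lay above all treated ones, and the changes were -38.1 points (adjusted p = 8.2e-05), -34.9 (adjusted p = 0.00013) and -20.6 (adjusted p = 0.029). The last of these was lost without either DMSO library or the first 10 µM library. All 10 Hoxb genes had their lowest mean at 0.2 µM.

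Hoxc genes were of middling level and none was called at 10 µM. Hoxc13, a gene of hair and nail formation (chr15:102921131-102928814), had the highest DMSO level, at 53.6% and 57.6%. It was at 42.0% and 31.8% at 0.2 µM, 34.1%, 31.2% and 36.7% with 2 µM, and 48.8% and 45.4% at 10 µM. Its changes were -18.7 points at 0.2 µM (adjusted p = 0.0013), -21.6 at 2 µM (adjusted p = 0.00039) and -8.5 at 10 µM (adjusted p = 0.23). Hoxc8, which patterns the thorax, had the lowest (chr15:102990539-102994275), at 23.4% and 28.9% in DMSO, 12.8% and 11.7% at 0.2 µM, 18.1%, 17.8% and 16.8% with 2 µM, and 27.0% and 16.3% at 10 µM. The call of Hoxc8 at 0.2 µM (-13.9 points, adjusted p = 0.011) was lost without the second DMSO library (adjusted p = 0.0754) or the second 0.2 µM library (adjusted p = 0.0549).

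Hoxd11, a posterior gene of limb and kidney development (chr2:74679558-74687016), had the highest level in Hoxd. It was at 77.4% and 78.6% in DMSO, 56.4% and 50.5% at 0.2 µM, 38.8%, 45.3% and 50.4% with 2 µM, and 59.6% and 64.4% at 10 µM. The groups did not overlap, and the 2 µM libraries were the lowest. The changes were -24.6 points (adjusted p = 4e-05), -33.2 (adjusted p = 6.1e-06) and -16.1 (adjusted p = 0.0072), and the last was lost without either DMSO library and under limma on log2 ratios. Hoxd8 (chr2:74704615-74707933) was at 72.7% and 77.9%, then 44.4% and 58.3%, then 43.5%, 45.5% and 45.6%, then 57.8% and 58.9%. Its change of -16.9 points at 10 µM (adjusted p = 0.048) lay at the threshold and was lost without either DMSO or either 10 µM library and under limma. Hoxd3, an anterior gene of neck vertebrae (chr2:74711993-74748271), had the lowest level of Hoxd, at 38.2% and 41.9% in DMSO, 24.0% and 20.6% at 0.2 µM, 27.5%, 28.2% and 27.6% with 2 µM, and 35.6% and 35.1% at 10 µM. Its changes of -17.8 points at 0.2 µM (adjusted p = 0.00013) and -12.3 at 2 µM (adjusted p = 0.0016) were called, and -4.7 at 10 µM was not (adjusted p = 0.37).

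Over the 39 genes 31 had their lowest mean at 0.2 µM and 8 at 2 µM, of which 4 were Hoxa, 1 Hoxc and 3 Hoxd genes, and 33 had their highest mean in DMSO. By sign alone 31 Hox genes were higher and 8 lower at 2 than at 0.2 µM. Over all 23224 genes these counts were 19216 and 3870, so the Hox split is close to that of all genes. The change from 0.2 to 2 µM went with the DMSO level across genes (Pearson r = -0.48, Spearman rho = -0.35, n = 39). This is a description, since the genes share libraries and in part their CpGs. From 0.2 to 2 µM 2 Hox genes were called higher, Hoxb3 (adjusted p = 0.018) and Hoxc9 (adjusted p = 0.039), against 9.65% of all genes. That count was 0 without either 0.2 µM library and 1 without 2 µM replicate 2 or 3. From 2 to 10 µM 15 were higher (8.85% of all genes) and from 0.2 to 10 µM 29 were higher (43.3%). The count of 15 was 1 and 0 without the first and second 10 µM library, 6, 8 and 9 without 2 µM replicate 1, 2 and 3, and 0 under limma on log2 ratios. The count of 29 was 19 without either 0.2 µM library.

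**Figure D4:**
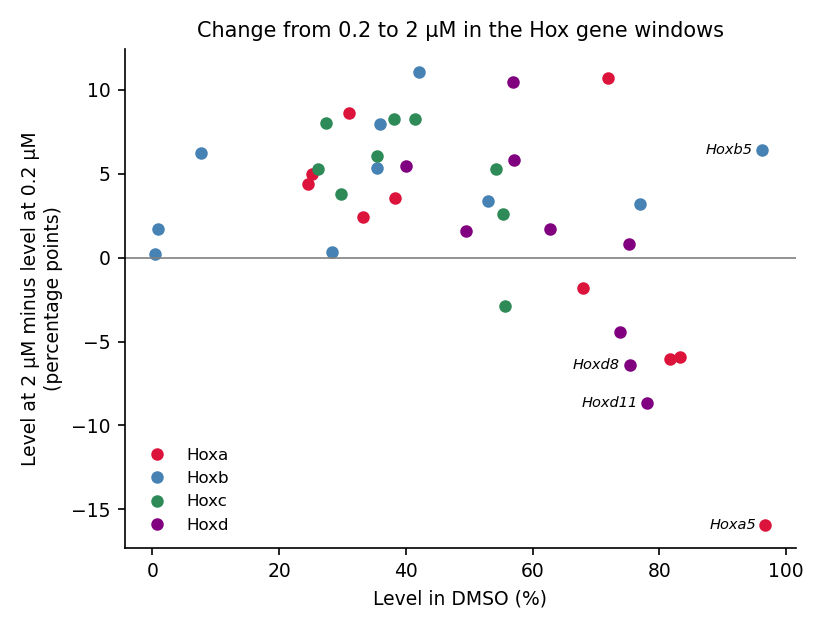
Difference in methylation between 2 and 0.2 µM (percentage points, vertical axis) against the DMSO level (percent, horizontal axis) for Hox gene windows, coloured by cluster. Windows below 0 were lower at 2 than at 0.2 µM, and Hoxa5 lies lowest at -15.9 points.

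The other Hox genes fell between these examples. Posterior Hoxa genes began low, with Hoxa9, Hoxa10, Hoxa11 and Hoxa13 at 33.3%, 38.2%, 25.2% and 24.6% in DMSO and at 18.5%, 23.3%, 15.4% and 12.8% at 0.2 µM. Hoxa9, known for its part in leukaemia, stood at 24.9% at 10 µM. Hoxa11 and Hoxa10, at 27.2% and 37.2% there, were within 2 points of DMSO. Hoxa7 showed the lowest remaining share of the Hoxa genes at 0.2 µM, going from 31.1% to 8.76%, and stood at 17.4% and 25.4% at 2 and 10 µM. Hoxa3 and Hoxd9, both called at 10 µM (adjusted p = 0.013 and 0.019), went from 67.9% and 73.8% in DMSO to 54.3% and 57.3%. In Hoxb, Hoxb2, Hoxb3 and Hoxb9 were at 35.5%, 42.1% and 53.0% in DMSO, 19.9%, 19.7% and 32.0% at 0.2 µM, and 37.7%, 41.1% and 46.0% at 10 µM. Hoxb13, a posterior gene set apart from the rest of its cluster, went from 36.0% to 15.5%, 23.5% and 28.7%, and Hoxb6 was at 28.3% ± 8.80 (SD, n = 2) in DMSO and 24.7% ± 4.45 (SD, n = 2) at 0.2 µM. The neighbours Hoxc4 and Hoxc5 were at 54.2% and 55.3% in DMSO and 21.7% and 27.2% at 0.2 µM. In Hoxd, Hoxd12 went from 56.9% to 24.5%, 34.9% and 47.1%, while Hoxd13, a gene of digit formation, went from 62.8% to 40.0%, 41.7% and 55.5%.

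Promoters, taken as 1 kb on either side of an annotated start, gave 21 testable windows for 20 Hox genes. At 0.2, 2 and 10 µM 15, 12 and 2 of the 21 were lower than in DMSO, against 23.1%, 17.1% and 3.51% of all 15505 promoter windows. The median change was -22.4, -22.7 and -7.62 points over the Hox windows and -0.47, -0.22 and -0.15 points over all windows. The windows were not matched on their DMSO level, and a window near 0 in DMSO cannot fall, so these shares do not compare the response at like levels. The 2 at 10 µM were Hoxa5 (-27.5 points, adjusted p = 0.0068) and Hoxd11 (-16.3 points, adjusted p = 0.029), and neither was called without the first or without the second DMSO library. None of the 21 was called higher by the binomial model, 0 at an unadjusted p under 0.05 and 0 under limma, against 0.0451%, 0.058% and 0.0451% of all promoter windows. With 500 bp on either side 9 were lower at 0.2 µM.

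The Hoxa5 promoter was at 96.4% and 98.0% in DMSO, 67.2% and 65.1% at 0.2 µM, 44.4%, 48.3% and 56.8% with 2 µM, and 69.5% and 69.9% at 10 µM. The Hoxd11 promoter was at 84.7% and 85.0%, then 64.1% and 60.8%, then 41.9%, 53.6% and 54.5%, then 64.7% and 72.4%. Both were lowest at 2 µM, with no overlap between 0.2 and 2 µM. The Hoxb1 promoter was instead lowest at 0.2 µM by mean, at 78.4% and 75.6% in DMSO, 33.6% and 30.9% at 0.2 µM, 43.3%, 35.9% and 29.3% with 2 µM, and 50.9% and 68.7% at 10 µM, where the 2 lower doses overlap. At the other end of the range the Hoxb4 promoter was at 0.3% and 0.0% in DMSO and no higher than 0.8% in any library, with 523 to 1039 reads. The Hoxa7 promoter, with 2 CpGs and 14 to 24 reads, was at 4.55%, 6.25%, 12.8% and 12.2% across the groups, too few reads to compare. One Hoxa10 promoter fell from 13.5% in DMSO to 3.46% at 0.2 µM without being called (adjusted p = 0.074), and was called under limma on log2 ratios (adjusted p = 0.00248).

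Tiles of 1 kb showed where in each window methylation was lost. Of 195 Hox tiles with enough reads, 127, 90 and 19 were lower than in DMSO at 0.2, 2 and 10 µM, against 58.1%, 45.5% and 7.82% of all 61297 tiles. At 0.2 µM these were 34 of 49 in Hoxa, 38 of 57 in Hoxb, 28 of 44 in Hoxc and 27 of 45 in Hoxd. The median change of the Hox tiles was -21.4, -16.4 and -7.02 points at 0.2, 2 and 10 µM. Over all tiles it was -30.5, -22.3 and -7.60 points. By this median Hox tiles fell less than all tiles at 0.2 and 2 µM, whereas Hox gene windows fell more than all genes. The starting levels differed in the same way. The median DMSO level was 39.4% over Hox tiles and 64.2% over all tiles, but 42.1% over Hox genes and 21.1% over all genes. Whether the falls differ beyond these starting levels was not tested. No Hox tile was called higher by the binomial model, 0 also at an unadjusted p under 0.05 and under limma, where 0.0245%, 0.0653% and 0.0326% of all tiles were higher. The 10 µM count of lower tiles was 0 without the first or the second DMSO library. Without the second, the count at 0.2 µM was 84, and without the first or the second the count at 2 µM was 53 or 58. In DMSO 19 Hox tiles were under 10%, of which 13 were in Hoxb and none in Hoxd, and 24 were at 90% or above, of which 14 were in Hoxb.

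**Figure D5:**
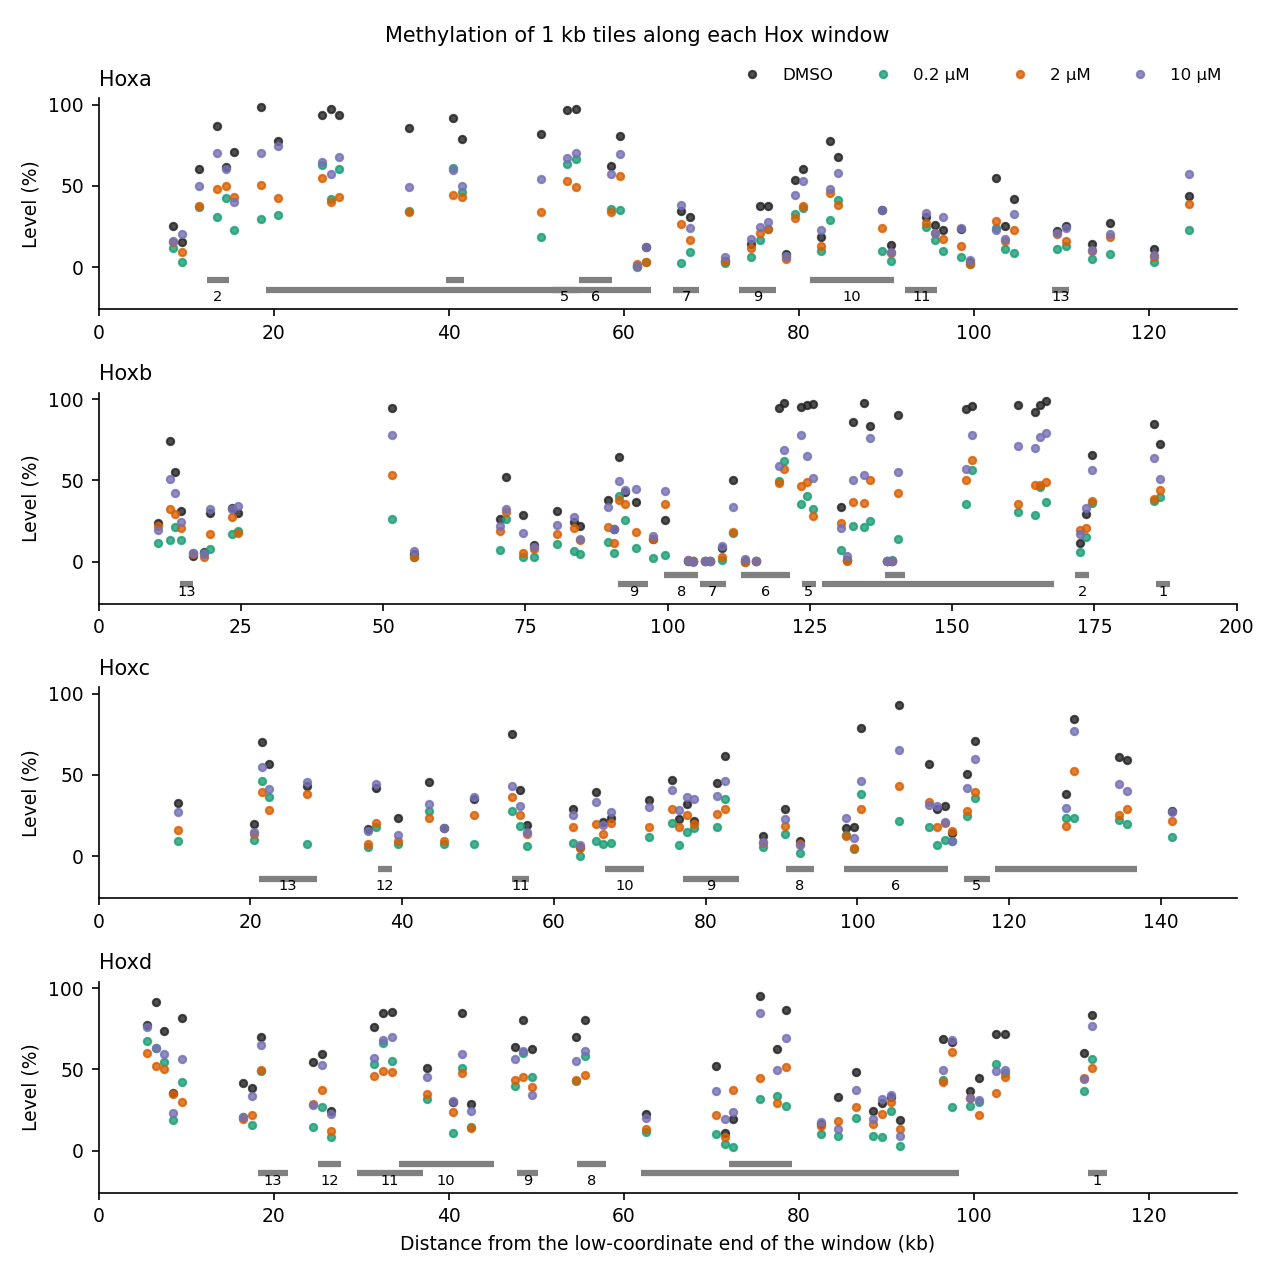
Methylation (percent, vertical axis) of 1 kb tiles along each Hox window by distance from the window's start (kb, horizontal axis), as group means coloured by dose. Grey bars are Hox genes, numbered by group, with groups 3 and 4 of Hoxa, Hoxb and Hoxd and group 4 of Hoxc left unnumbered. Hoxb runs from near 0 to near 100% within its central part, whereas Hoxd has no tile under 10% in DMSO.

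The largest falls were inside Hoxb3, a gene of hindbrain patterning whose long span also covers Hoxb4. The tile at chr11:96314001-96315000 was at 98.1% and 96.9% in DMSO, 22.2% and 20.6% at 0.2 µM, 31.0%, 39.4% and 38.3% with 2 µM, and 53.6% and 53.3% at 10 µM (-76.1 points at 0.2 µM, adjusted p = 6e-05). The tile at chr11:96320001-96321000, over Hoxb4, was at 83.9% and 96.2%, then 12.6% and 15.4%, then 25.5%, 51.3% and 49.5%, then 63.0% and 47.0%. In Hoxc the tile at chr15:103005001-103006000, in Hoxc6, was at 91.7% and 94.1%, then 32.6% and 11.1%, then 45.3%, 22.2% and 61.4%, then 57.1% and 74.1%, on 17 to 63 reads. The Hoxb tiles had DMSO and 0.2 µM libraries far apart, while the Hoxc tile varied widely within each treated group.

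Other tiles chosen for the highest DMSO level in their cluster moved in both orders. In Hoxa the tile at chr6:52168001-52169000, in the antisense gene Hoxaas2, went from 98.6% to 29.4%, 50.6% and 70.1% at the 3 doses, and that at chr6:52204001-52205000, between Hoxa5 and Hoxa6, from 97.3% to 66.8%, 49.1% and 70.1%. In Hoxb the tile at chr11:96346001-96347000 in Hoxb3 went from 98.9% to 36.6%, 48.8% and 79.0%, and that at chr11:96300001-96301000 in Hoxb6 from 97.9% to 62.2%, 57.3% and 68.6%. In Hoxd the tile at chr2:74725001-74726000 in Hoxd3 and Hoxd4 went from 95.2% to 31.7%, 44.6% and 84.7%, and that at chr2:74656001-74657000 in Evx2 from 91.7% to 63.2%, 52.0% and 63.3%. The Hoxc4 tile at chr15:103028001-103029000 went from 84.5% to 23.5%, 52.2% and 76.9%. Of these 7 tiles, those over Hoxa5, Hoxb6 and Evx2 were lower at 2 than at 0.2 µM, and the others higher. Among Hox tiles at 50% or above in DMSO, 50% of 22 in Hoxa, 59.3% of 27 in Hoxd, 33.3% of 12 in Hoxc and 16.7% of 24 in Hoxb had a lower mean at 2 than at 0.2 µM, against 19.3% of 34742 such tiles in all.

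Genes of other kinds lie inside the windows and were tested in the same way. The microRNA gene Mir10b, which lies next to Hoxd4, fell from 92.6% to 30.8% at 0.2 µM (adjusted p = 0.00027) on 6 CpGs, and stood at 45.5% and 78.2% at 2 and 10 µM. The microRNA genes Mir196a-1, Mir196a-2, Mir196b and Mir615 went from 35.8%, 32.1%, 53.9% and 57.2% in DMSO to 5.99%, 11.4%, 32.7% and 27.9% at 0.2 µM, each called. Evx2, a homeobox gene at the posterior end of Hoxd, went from 69.7% to 53.3%, 49.5% and 62.4%. Among the long noncoding RNAs, Hotair, known for Polycomb binding, went from 36.2% to 21.8%, 18.7% and 27.0%, Hottip, at the posterior end of Hoxa, from 23.1% to 7.36%, 15.6% and 18.3%, and Hotairm1, at its anterior end, from 33.3% to 16.6%, 19.8% and 23.7%. All 3, like the microRNA genes above, were called lower at 0.2 µM, where 49.9% of all genes tested were called lower. Hoxaas2 went from 81.2% to 26.7%, 46.1% and 59.4%. Antisense and microRNA windows overlap those of Hox genes, so these are in part the same reads.

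Partners and regulators of Hox genes were read in the same way, in gene windows and from lists chosen with earlier results known. Over all genes tested, 49.9%, 34.0% and 8.47% were lower at 0.2, 2 and 10 µM. The TALE homeodomain cofactors (such as the Meis genes), which bind DNA with Hox proteins, had 7, 4 and 0 of 9 windows lower at 0.2, 2 and 10 µM, with a median level of 34.9% in DMSO and 14.0% at 0.2 µM. Pbx4 fell by 34.8 points from 49.7% ± 12.2 (SD, n = 2) to 14.9% ± 7.88 (n = 2) at 0.2 µM (binomial model, adjusted p = 0.0115) on 24 to 80 reads. All 3 Cdx genes, activators of posterior Hox genes in the embryo, were lower at 0.2 µM and 2 of them at each higher dose, with a median of 70.8% in DMSO. Cdx4 fell by 39.7 points from 70.8% to 31.1% (adjusted p = 0.0066) on 10 to 65 reads. Of 15 Polycomb genes, which silence Hox genes, 2 were lower at 0.2 µM (Cbx7 and Cbx8) and none at 2 or 10 µM, at a median of 3.16% in DMSO. Of 6 trithorax and demethylase genes, which act against Polycomb, 2 were lower at 0.2 µM, at a median of 7.33%. The other cell type lists had few tested genes, with 4 of 9 B lineage, 1 of 4 T cell, 3 of 3 myeloid and 1 of 1 erythroid windows lower at 0.2 µM, beside the 49.9% of all genes.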

How the data were processed

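The 9 RRBS libraries of 1 cell line were grouped by the labels. The authors deposited 1 table per library without a header: each line holds a CpG position, methylated over total reads as text, and a score, which in every line equalled the methylated share times 1000, rounded down. The reads were taken from the deposited text entry. The build is mm10, per the submitters' processing notes, with aligner and caller not given in the sources used here. Lines with an odd width (1 to 2 per library) or a repeated position (18 to 68) were left out. Libraries held 8590777 to 16495423 reads at CpGs.

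CpGs needed 1 read in each of the 9 libraries, and genes, promoters and tiles 10 reads. Such depth limits single CpGs, and PCR copies were not separated, so precision covers counting error only. A library's level is the unweighted mean over CpGs, or for genes, promoters and tiles summed methylated over summed reads. Doses were compared with exact two-sided permutation tests. Genes, promoters and tiles were compared with a binomial model on reads scaled down for the extra spread between libraries of a group. Dispersion was moderated by limma 3.58.1 (R 4.3.3, Python 3.11.15), with Benjamini-Hochberg adjustment over all features tested. The scaling left the levels as they were, so unequal coverage of CpGs remains in them. Weighted by reads, all CpGs were at 19.2% in DMSO and 22.8% at 10 µM, against 37.6% and 30.7% unweighted. Methods were tested on simulated data. RefSeq tables of GRCm38.p6 gave spans for 39 and starts for 22 of the 39 Hox genes; all 181463 CpG positions checked in their promoter windows fall on CG.

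The members and lists were chosen with earlier results of these data known. Genes and tiles are named by rule: the highest and lowest genes and the 2 highest tiles of each cluster in DMSO, the 3 largest falls at 0.2 µM, the first genes called at 10 µM, and the 3 highest and lowest promoters. Other genes were named after their values were seen. Some items that these rules name are not reported here. Alternatives were other read minimums, weightings, windows and models, leaving out each library, and a replicate block. The ratios to all CpGs and the CpGs at 80% or above in DMSO were added after seeing the data.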

Additional observations from a re-analysis of the deposited data

Results flagged for a closer look

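Several contrasts within the Hox windows differed between the clusters or the doses by a test of the difference itself. The excess of Hoxd over Hoxb was 2.96 points larger at 0.2 µM than in DMSO. Posterior minus anterior moved up from DMSO to 0.2 µM by 9.26 points over all clusters, by 12.2 points in Hoxa and by 20.5 points in Hoxb, and moved by -3.08 points in Hoxd. All of these were exact permutation tests across the 4 groups, so they show that the contrast differed somewhere among the doses. The contrasts are in points, so they can change where both sides keep the same share of their DMSO level.

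Relative to all CpGs, the log2 ratio rose from DMSO to 0.2 µM by 0.24 over all Hox CpGs, by 0.23 in Hoxa and by 0.53 in Hoxd, in unweighted means over CpGs with at least 1 read. With at least 10 reads it changed by -0.22 over all Hox CpGs and -0.29 in Hoxa, and weighted by reads all 3 had the other sign. Among CpGs at 80% or above in DMSO, the level over that of all such CpGs changed from 0.2 to 2 µM by -10.2 points over all Hox CpGs and by -19.2 points in Hoxd. With at least 5 reads per CpG the Hoxd value was -16.5 points and no longer passed (unadjusted exact p = 0.0857), and weighted by reads it was -16.8 points (unadjusted exact p = 0.0476).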

How the results depend on the processing

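The fall at 0.2 and 2 µM in each cluster and the excess of Hoxd kept their direction under every alternative run. Other results depended on which CpGs count, and the cause was not tested. With at least 5 reads per CpG, the level of Hoxb minus Hoxa was 3.18, Hoxc minus Hoxa 7.78 and Hoxc minus Hoxb 4.60 points. The changes of a gap at 0.2 µM were then -8.71 (Hoxc minus Hoxa), -4.68 (Hoxd minus Hoxa), 4.03 (Hoxd minus Hoxc) and 6.45 (posterior minus anterior in Hoxa). The log2 ratios to all CpGs changed by 0.066 (Hoxa), -0.19 (Hoxb) and 0.37 (Hoxd), and the CpGs at 80% or above by -6.01 (all Hox) and -16.5 points (Hoxd). With at least 10 reads the levels were 1.29, 5.04 and 3.75 points for the same 3 pairs and 2.20 for posterior minus anterior in Hoxa. The changes were -1.60 (Hoxb minus Hoxa), -8.76 (Hoxd minus Hoxa), -7.16 (Hoxd minus Hoxb), -0.24 (Hoxa ends) and 1.36 (Hoxd ends), and the log2 ratios changed by -0.22 (all Hox), -0.29 (Hoxa) and -0.37 (Hoxb). Weighted by reads, Hoxb at 10 µM was 0.969 points above DMSO, and Hoxc lay 2.80 above Hoxb. The changes were 2.78 (Hoxb minus Hoxa), -6.00 (Hoxd minus Hoxa), -6.75 (Hoxc minus Hoxb), -8.78 (Hoxd minus Hoxb) and 4.79 (Hoxa ends). The log2 ratios changed by -0.25 (all Hox), -0.22 (Hoxa), -0.28 (Hoxb), -0.52 (Hoxc) and -0.14 (Hoxd), and all Hox CpGs at 80% or above by -7.35 points. As a mean over tiles, Hoxb minus Hoxa was -1.53 and Hoxc minus Hoxb -9.38, with changes of -3.23 and 8.82, and Hoxd minus Hoxb, Hoxd minus Hoxc and the Hoxd ends changed by 3.61, -5.21 and -4.49. Without the CpGs with the most reads, Hoxc minus Hoxb was -2.74. With groups 1 to 8 against 9 to 13 the level difference was -0.82 and the Hoxd change -2.76, and as a mean over genes the latter was -3.49.

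Counts of Hox genes higher at 2 than at 0.2 µM were 1 with 20 reads, 5 under limma, 11 without scaling of reads and 1 without flanks, and lower ones 0 with 5 reads, 0 under limma and 2 without flanks. Genes higher than DMSO at 2 µM numbered 1 under limma and 1 without scaling. Genes lower at 10 µM numbered 5 under limma, and genes higher at 10 than at 2 µM 0 under limma and 23 without scaling. Promoters lower at 10 µM numbered 1 under limma and 4 without scaling, and at 0.2 µM 9 with 500 bp on either side. Tiles lower at 10 µM numbered 36 without scaling and 12 at 500 bp.

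Leaving out 1 library gave 84 to 131, 53 to 95 and 0 to 26 lower tiles, 3 to 9 lower genes at 10 µM, and 0 to 2 lower promoters. Between doses it gave 19 to 29 (10 over 0.2 µM), 0 to 14 (10 over 2 µM), 0 to 2 (2 over 0.2 µM) higher and 0 to 1 lower genes. The changes ran from 10.3 to 14.1 (Hoxa ends), -5.21 to -0.957 (Hoxd ends), -2.28 to -1.69 (Hoxb minus Hoxa), -21.2 to -17.3 and -11.9 to -8.62 (Hoxd and all Hox CpGs at 80% or above) and -2.04 to 0.42 (share at 20 to 80%), and the level of Hoxc minus Hoxb from -2.07 to -1.20.

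The labels number the replicates. Deviations of same-numbered libraries were nearly uncorrelated (r from -0.0118 to 0.0262, against -0.0262 to 0.0118 for other numbers). Of 9 libraries 6 were closest to their own number, and 2 µM replicate 3 has no library of its number, so it could not be. In groups of 2 libraries the deviations mirror each other, so this comparison cannot decide whether the numbers mark pairs. With the replicate block the smallest p is 0.0417, or 0.167 among treated libraries. Under the block these results, which had an unadjusted p under 0.05 without it, had one above: changes of -1.98 (Hoxb minus Hoxa), 12.2, 20.5 and -3.08 (ends of Hoxa, Hoxb and Hoxd), 0.24 (log2 ratio, all Hox), -20.7 (share at 80% or above), -9.86 and -19.6 (all Hox and Hoxd CpGs at 80% or above). The block gave 0 lower and 1 higher genes at 2 against 0.2 µM, 9 higher at 10 against 2 µM, and 12 lower tiles at 10 µM.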
